A study of Homo sapiens with 12 samples.

Results

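The tricarboxylic acid (TCA) cycle and mitochondrial fatty acid oxidation genes examined here are 38 nuclear genes chosen by symbol, of 61860 genes in the deposited table. They encode the enzymes that bring pyruvate into the cycle (6 genes), the cycle itself (13), fatty acid activation and carnitine transport (4), the β-oxidation spiral (8), the auxiliary steps for unsaturated fatty acids (3) and the transfer of electrons to the respiratory chain (3), together with the regulator PPARA. All 38 symbols matched a single gene. RNA was sequenced from a pair of HEK293 Flp-In T-REx lines, human embryonic kidney cells with a single genomic FRT site into which a doxycycline-inducible cassette is recombined. In both lines, WT-res and ΔRS-res, doxycycline at 1 µg/ml for 6 days switched on a chain of miRNAs that target the cell's own PGC-1α transcript, and with it a FLAG-tagged PGC-1α that these miRNAs do not recognise. The rescue protein was full length in WT-res and lacked residues 595 to 633, per the labels, in ΔRS-res. These lie in the arginine/serine-rich (RS) domain, which begins at an earlier residue in the study's own map of the protein. Each line gave 3 whole-cell libraries, each from 1 well, and 3 cytoplasmic libraries, each from 6 pooled wells. The replicates came from consecutive passages of these lines, so their spread is that of cultures of 1 integrated line per genotype, and no uninduced culture is among the 12 libraries. Differences between the genotypes therefore cannot be told apart from differences between the lines that were present before induction.

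PGC-1α, encoded by PPARGC1A, is a transcriptional coactivator that docks on nuclear receptors such as PPARα and the oestrogen-related receptors, and on NRF1, at genes of mitochondrial energy metabolism. Pyruvate and fatty acids reach the TCA cycle as acetyl-CoA, the first through the pyruvate dehydrogenase complex and the second after carnitine-dependent import and stepwise shortening in the mitochondrial matrix. The cycle oxidises acetyl-CoA to carbon dioxide and hands its electrons to the respiratory chain. The study asked which mRNAs depend on the RS domain of PGC-1α to reach the cytoplasm, and whole-cell and cytoplasmic RNA are the readouts of that question.

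Library totals lay between 90333190 and 144628005 expected counts, so that sampling error is small for every gene of the set except DECR1. The whole-cell library labelled WT-res replicate 3 stood apart. DDX19B, an RNA helicase gene with 12.6 to 14.8 CPM (counts scaled to a common library size after TMM) in the 5 other WT-res libraries and 0.229 to 0.345 CPM in ΔRS-res, had 0.199 CPM in it. SDHA, a subunit of succinate dehydrogenase, stood at 335 CPM in it, against 70.4 to 75.1 CPM in the 5 other WT-res libraries and 317.6 to 391.9 CPM in ΔRS-res. For both genes the library thus lay with ΔRS-res and against its label, and whether it was mislabelled or exchanged was not tested. Counts of called genes that rest on it are given with it and without it. Some whole-cell changes of single genes are given only for the 5 libraries without it, as are the whole-cell medians of neighbouring genes. Of 7 genes that mark HEK293 cells, only NEFM was under 1 CPM in every library. The 9 markers of hepatocytes, blood and endothelium stayed under 1 CPM in every library, as did all of the 4 fibroblast and muscle markers but COL1A1 (3.05 to 6.34 CPM). The study kept 4 of the 6 cytoplasmic libraries after a principal component analysis (replicates 1 and 3 of WT-res, 1 and 2 of ΔRS-res), and both choices are reported.

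The pathway was expressed throughout. On the TPM scale, which corrects for transcript length and so allows comparison between genes, citrate synthase (CS) led with a mean of 330.2 TPM over the 12 libraries, followed by the pyruvate dehydrogenase subunit PDHA1 (248 TPM), the mitochondrial malate dehydrogenase MDH2 (225 TPM), the electron carrier ETFA (194 TPM) and the cytosolic malate dehydrogenase MDH1 (189.7 TPM). At the other end stood PPARA (6.96 TPM), the biotin enzyme pyruvate carboxylase PC (4.17 TPM), the carnitine acyltransferase CPT1A (3.92 TPM) and the dienoyl-CoA reductase DECR1 (0.349 TPM). DECR1 was thus listed near background in these cells, with 300 counts over all 12 libraries.

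Together the 38 genes accounted for 3433, 3535 and 4209 CPM in WT-res whole-cell replicates 1 to 3 and for 4002, 3912 and 4329 CPM in the ΔRS-res whole-cell libraries. The third WT-res value is that of the library that stood apart, and without it both WT-res sums lay under every ΔRS-res sum. In the cytoplasm the sums were 3992, 4123 and 4245 CPM in WT-res and 4570, 4693 and 5069 CPM in ΔRS-res, so that the groups did not overlap. The mean cytoplasmic sum was 4120 ± 127 CPM in WT-res and 4777 ± 260 CPM in ΔRS-res (SD, n = 3 each). In bulk RNA, fewer cells that express a gene and less RNA per cell cannot be told apart.

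**Figure D1:**
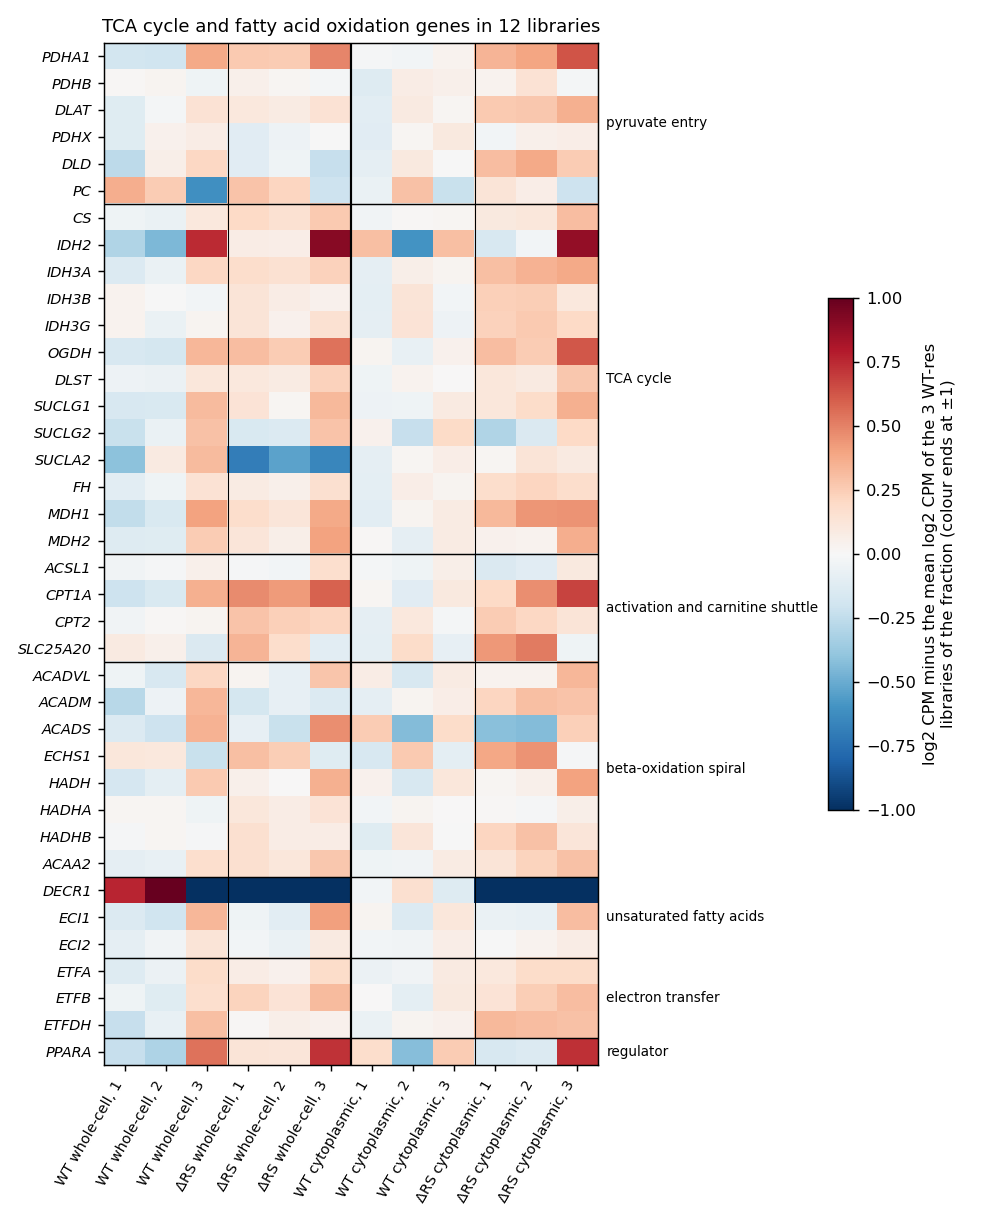
Log2 CPM of the 38 genes (rows, grouped by role) in each of the 12 libraries (columns), relative to the mean log2 CPM of the 3 WT-res libraries of the same fraction. Red is higher and blue lower, and colours end at 1 on either side. Most rows are redder in the 3 ΔRS-res cytoplasmic libraries than in the 3 WT-res ones, DECR1 is blue there, and WT-res whole-cell replicate 3 looks unlike its neighbours.

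In cytoplasmic RNA the set lay mostly on the higher side in ΔRS-res, by small amounts. With all 6 libraries, 33 of the 38 genes had a positive log2 fold change and the median was 0.19, against 0.0043 for the 25949 genes tested, of which 50.8% were positive. Only 2 of the 38 passed an adjusted p of 0.05, where 1.53% of all genes tested did (0.578% higher and 0.948% lower). MDH1 rose and DECR1 fell. At an unadjusted p of 0.05 the numbers were 17 higher and 1 lower, against 1328 and 1469 of the 25949 genes tested. DESeq2 called 8 higher, namely PDHA1, DLAT, DLD, IDH3A, OGDH, MDH1, ACADM and ETFDH, and DECR1 lower. Among all genes tested it called 426 higher and 507 lower. In 18 genes every ΔRS-res library lay above every WT-res library, a pattern found in 8.62% of all genes tested and in 11.1% of those with a mean of at least 5 CPM. DECR1 alone showed the opposite order, which 8.56% of all genes did. All but DECR1, 37 of the 38 changes, were under 0.5 on the log2 scale.

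In whole-cell RNA with all 6 libraries, none of the 38 passed edgeR's test at an adjusted p of 0.05, and none of the 26793 genes tested did (0%). A gene that did not pass is not thereby shown to be unchanged, here and in the other comparisons. At an unadjusted p of 0.05, 3 were higher and 2 lower, against 1071 and 2289 of all genes tested. DESeq2 called CPT2 higher and SUCLA2 lower, and among all genes tested 269 higher and 795 lower. The median log2 fold change was 0.11, against 0.0042 for all genes tested, and 31 genes were positive. In 7 genes (CS, IDH3B, IDH3G, CPT1A, CPT2, HADHA and HADHB) every ΔRS-res library lay above every WT-res library, as in 8.74% of all genes tested and 13.6% of those with a mean of at least 5 CPM, and in SUCLA2 every one lay under, as in 10.2% and 12.97%. Whole-cell libraries with the same replicate number deviated together, and with the replicate number as a block CPT1A, CPT2, ETFB, IDH2, OGDH and PPARA were called higher and SUCLA2 lower. This block pairs WT-res replicate 3 by its label, and the share of all genes called with it is not reported here. Without WT-res replicate 1, SUCLA2 alone was called.

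Without the whole-cell library labelled WT-res replicate 3, 4 of the 38 whole-cell genes passed, where 2.06% of all genes tested did (0.886% higher and 1.18% lower). PDHA1, OGDH and CPT1A rose in ΔRS-res and DECR1 fell. The median was 0.19 against -0.0051 for all genes tested, with 32 genes positive where 49.3% of all genes were. At an unadjusted p of 0.05, 19 were higher and 2 lower, against 2522 and 2849 of all 26762 genes tested. In 24 genes all 3 ΔRS-res libraries lay above both WT-res libraries, which 21.4% of all genes and 29.2% of those with a mean of at least 5 CPM did, and in SUCLA2 and DECR1 they lay under both, which 21.2% and 25.2% did. The block for the replicate number raised the calls to 16 higher and 2 lower. The share of all genes called with it is not reported here, so this rise is not compared with that of other genes. Leaving out a further library left 0 genes called without WT-res replicate 2 and 1 without WT-res replicate 1 (SUCLA2, lower). Without ΔRS-res replicates 1, 2 and 3 the numbers were 1 (DECR1), 2 (CPT1A and OGDH) and 12.

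**Figure D2:**
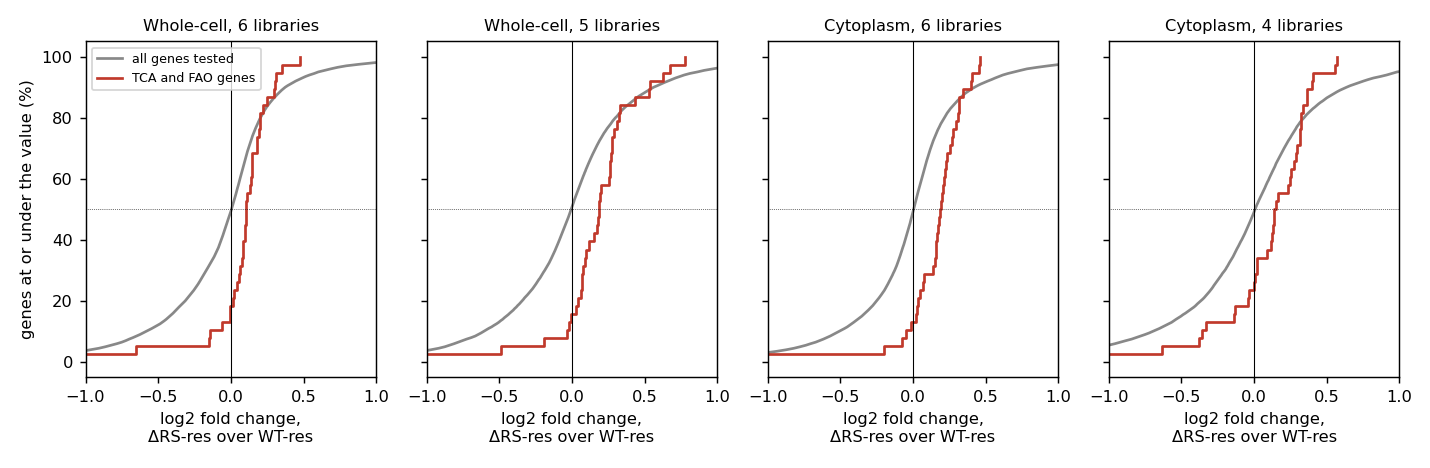
Cumulative share (vertical axis, percent) of genes at or under each log2 fold change of ΔRS-res over WT-res (horizontal axis, cut at 1 on either side), for the 38 genes in red and all genes tested in grey, in 4 sets of libraries. The red curve crosses the 50% line to the right of the grey curve in each panel, at medians of 0.11, 0.19, 0.19 and 0.14.

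Among the genes of pyruvate entry, the pyruvate dehydrogenase subunits had unequal changes. PDHA1 (chrX:19343893-19361718, plus strand of GRCh38 in GENCODE 44, as for the positions that follow), the E1α subunit and the target of the regulatory kinases, stood at 193, 191 and 285 CPM in WT-res and 263, 261 and 308 CPM in ΔRS-res whole-cell RNA, and at 233, 230.5 and 241 CPM against 298, 309 and 363 CPM in the cytoplasm. Every cytoplasmic ΔRS-res value lay above every WT-res value, while the whole-cell groups overlapped through WT-res replicate 3. Its log2 fold change was 0.53 (SE 0.0892, adjusted p = 0.0333) in the 5 whole-cell libraries, a call, and 0.46 (SE 0.0887, adjusted p = 0.0527) in the 6 cytoplasmic ones, just short of it. With all 6 whole-cell libraries the change of PDHA1 was 0.31 (SE 0.164, adjusted p = 0.498). DLAT, the acetyltransferase core of the complex, had cytoplasmic values of 158, 181 and 172 CPM in WT-res and 203, 205 and 218 CPM in ΔRS-res, without overlap, and 139, 148 and 166 against 162, 159.7 and 167 CPM in whole-cell RNA, where the groups overlapped. Its cytoplasmic change was 0.29 (SE 0.0759, adjusted p = 0.152). DLD, the dihydrolipoyl dehydrogenase shared with the 2-oxoglutarate complex, had 208, 237 and 222 against 274, 289 and 265 CPM in the cytoplasm, with no overlap (log2 fold change 0.31 (SE 0.0762, adjusted p = 0.125)). In whole-cell RNA its groups overlapped, with 162, 202 and 224 CPM in WT-res and 179, 188 and 166 CPM in ΔRS-res. The E1β subunit PDHB and the E3-binding protein PDHX had cytoplasmic log2 fold changes of 0.051 and 0.028. PC, which makes oxaloacetate from pyruvate, changed least of the group in the 6 cytoplasmic libraries (-0.012) but not in the 5 whole-cell ones (-0.19), with 10.3, 13.2 and 9.20 CPM in WT-res and 11.7, 11.3 and 9.33 CPM in ΔRS-res cytoplasm and 13.7, 12.7 and 6.95 against 12.98, 12.4 and 9.20 CPM in whole-cell RNA, the third replicate being lowest in all 4 groups. On the reverse strand LRFN4 shares exonic sequence with PC, and strand use in counting is not stated here.

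The 13 TCA cycle genes were positive in 12 cases in the cytoplasm (median log2 fold change 0.20) and in 12 cases in the 5 whole-cell libraries (median 0.26). MDH1 (chr2:63588609-63607197, plus strand), the cytosolic malate dehydrogenase of the malate-aspartate shuttle, had 137, 150 and 156 CPM in WT-res and 185, 199.9 and 201 CPM in ΔRS-res cytoplasm. These groups did not overlap, and the log2 fold change was 0.40 (SE 0.0765, adjusted p = 0.0498), a call that was lost whichever library was left out. In whole-cell RNA MDH1 stood at 126, 135 and 198 CPM against 169.5, 162 and 195 CPM, a log2 fold change of 0.43 (SE 0.0926, adjusted p = 0.0721) without WT-res replicate 3, whose value was the highest of all 6. With that library the change was 0.20 (SE 0.1735, adjusted p = 0.714). OGDH (chr7:44606572-44709066, plus strand), the E1 subunit of the 2-oxoglutarate dehydrogenase complex, had 104, 103 and 146 CPM in WT-res and 144, 138 and 169 CPM in ΔRS-res whole-cell RNA. Among the WT-res values only that of replicate 3 lay within the ΔRS-res range, and without it the log2 fold change was 0.54 (SE 0.0968, adjusted p = 0.0409), a call. With all 6 whole-cell libraries the change of OGDH was 0.35 (SE 0.152, adjusted p = 0.401). Its cytoplasmic values, 118, 110 and 119 against 143, 138 and 177 CPM, did not overlap (0.40 (SE 0.104, adjusted p = 0.152)). DLST, the E2 subunit of the same complex, changed by 0.20 and 0.16 on the log2 scale in these comparisons, and neither passed.

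Of the NAD-dependent isocitrate dehydrogenase, the catalytic subunit IDH3A showed 197, 219 and 215 CPM in WT-res and 259, 268 and 274 CPM in ΔRS-res cytoplasm, and 179, 188 and 227 against 222, 219 and 231 CPM in whole-cell RNA. The cytoplasmic groups did not overlap and the whole-cell groups did, at WT-res replicate 3. The log2 fold changes were 0.34 (SE 0.0705, adjusted p = 0.0683) in the cytoplasm and 0.29 (SE 0.0649, adjusted p = 0.0786) in the 5 whole-cell libraries. IDH3G, a regulatory subunit, had 34.9, 40.9 and 35.96 against 43.5, 44.6 and 42.7 CPM in the cytoplasm and 36.2, 33.7 and 35.8 against 38.4, 36.3 and 39.2 CPM in whole-cell RNA, with no overlap in either fraction and a cytoplasmic change of 0.23 (SE 0.083, adjusted p = 0.358). The other regulatory subunit, IDH3B, had a cytoplasmic log2 fold change of 0.20. SSR4 overlaps the exons of IDH3G on the opposite strand.

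IDH2, the NADP-dependent mitochondrial enzyme, varied more between libraries of a line than between the lines. It stood at 47.7, 25.6 and 47.6 CPM in WT-res and 34.7, 38.02 and 71.03 CPM in ΔRS-res cytoplasm, and at 27.3, 24.6 and 56.2 against 35.4, 35.1 and 63.1 CPM in whole-cell RNA. Its low values were those of WT-res whole-cell replicates 1 and 2 and WT-res cytoplasmic replicate 2, and the third ΔRS-res replicate was the highest in both fractions. The cytoplasmic change was 0.25 (SE 0.319, adjusted p = 0.875) with 6 libraries. The whole-cell change was 0.78 (SE 0.258, adjusted p = 0.161) without WT-res replicate 3 and 0.31 (SE 0.359, adjusted p = 0.805) with it.

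The 2 succinyl-CoA ligases share their α subunit, SUCLG1, which had log2 fold changes of 0.22 in the cytoplasm and 0.32 in the 5 whole-cell libraries, neither called. SUCLA2 (chr13:47745736-48037968, minus strand), the β subunit of the ADP-forming ligase, was the only cycle gene below WT-res in whole-cell RNA by more than 0.1, with 50.5, 71.4 and 83.1 CPM in WT-res and 41.5, 46.2 and 42.6 CPM in ΔRS-res. All ΔRS-res values lay under all WT-res values, including that of replicate 3. The log2 fold change was -0.65 (SE 0.17, adjusted p = 0.213) with 6 libraries and -0.49 (SE 0.14, adjusted p = 0.126) with 5. In the cytoplasm SUCLA2 was nearly level, at 91.7, 99.02 and 102 against 98.7, 106 and 104 CPM (log2 fold change 0.076 (SE 0.0718, adjusted p = 0.804)). SUCLG2, the β subunit of the GDP-forming ligase, had a cytoplasmic change of -0.076. CS, FH (fumarase) and MDH2 had cytoplasmic log2 fold changes of 0.17, 0.19 and 0.15, and 0.26, 0.17 and 0.33 in the 5 whole-cell libraries, none of them called.

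**Figure D3:**
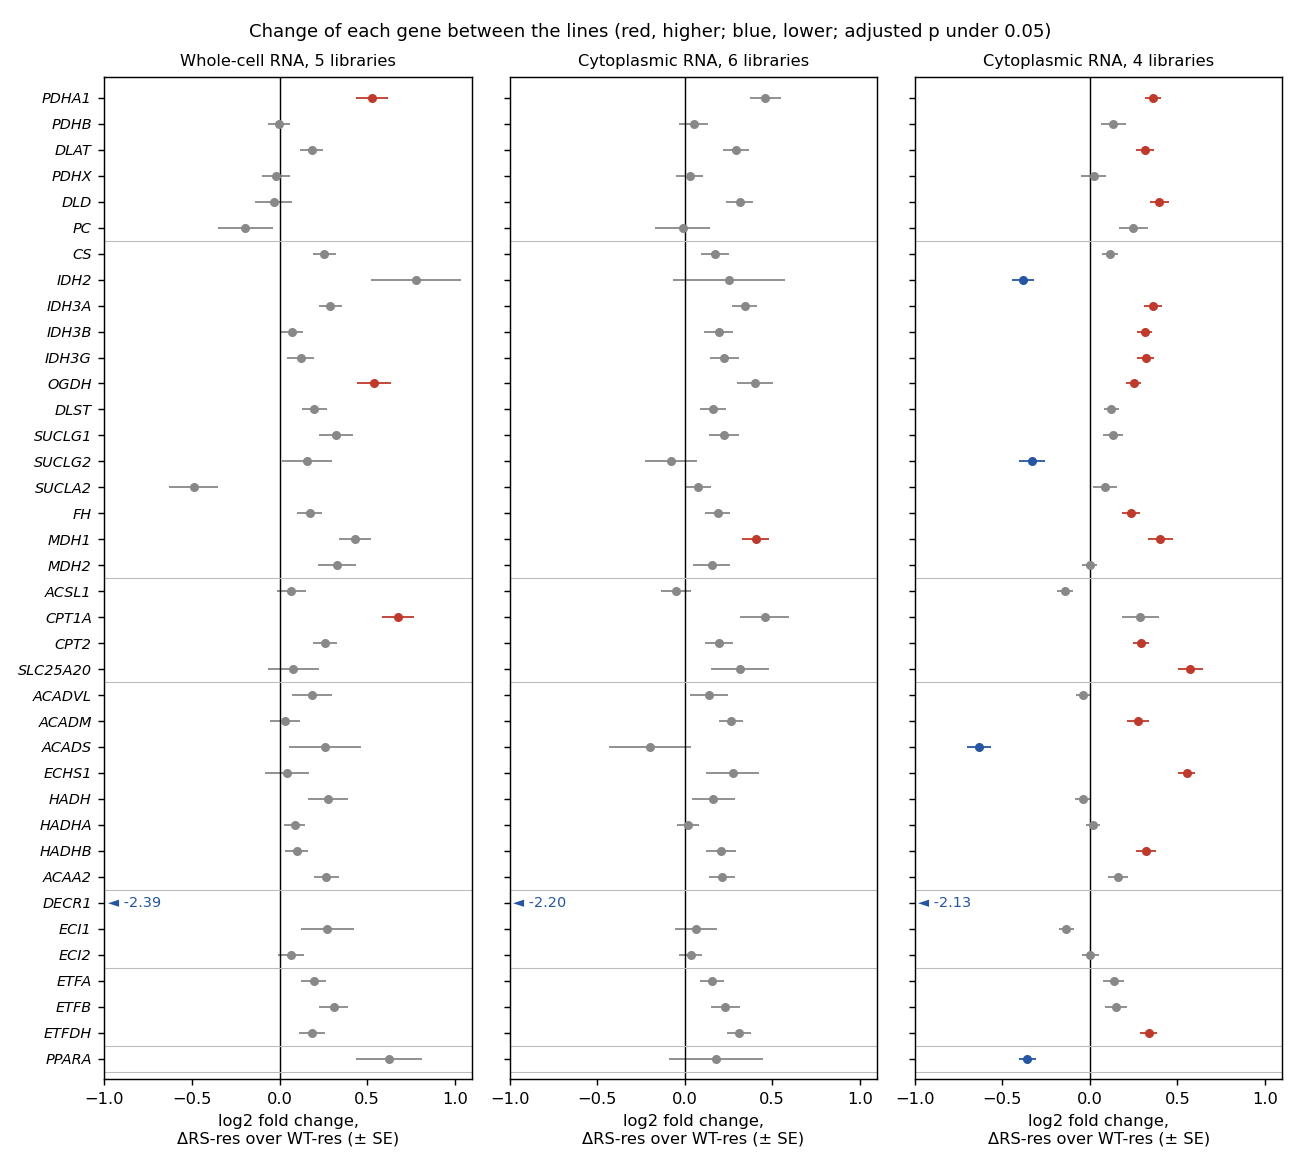
Log2 fold change of ΔRS-res over WT-res with its standard error for each of the 38 genes, by role from pyruvate entry at the top to PPARA at the bottom, in the 5 whole-cell, 6 cytoplasmic and 4 cytoplasmic libraries. Red points are higher and blue points lower at an adjusted p under 0.05, grey points did not pass, and DECR1 lies off the axis at the values printed. The 4-library panel has 20 coloured genes and the 6-library panel 2.

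In fatty acid activation and import, CPT1A (chr11:68754620-68844410, minus strand) stood out. This outer-membrane acyltransferase commits long-chain acyl groups to oxidation and is the liver-type isoform. It had 12.3, 12.8 and 18.2 CPM in WT-res and 19.7, 19.1 and 21.4 CPM in ΔRS-res whole-cell RNA, and 7.88, 7.21 and 8.32 against 8.92, 10.8 and 12.4 CPM in the cytoplasm. ΔRS-res lay above WT-res without overlap in both fractions, even with WT-res whole-cell replicate 3. The log2 fold change was 0.68 (SE 0.0926, adjusted p = 0.0154) in the 5 whole-cell libraries, 0.47 (SE 0.159, adjusted p = 0.283) in all 6 and 0.46 (SE 0.139, adjusted p = 0.239) in the cytoplasm, and only the first was called. CPT2, its inner-membrane partner, changed by 0.26 and 0.20 in the first and the last of these and was not called. SLC25A20, the carnitine-acylcarnitine carrier between them, had 6.83, 8.31 and 6.92 CPM in WT-res and 9.88, 10.5 and 7.09 CPM in ΔRS-res cytoplasm, where the third ΔRS-res library fell among the WT-res values (0.31 (SE 0.166, adjusted p = 0.571)). Its whole-cell values were 8.27, 8.04 and 7.04 against 9.83, 8.77 and 7.22 CPM. ACSL1, which forms long-chain acyl-CoA, was nearest to no change, with 60.4, 59.7 and 63.9 against 55.5, 56.8 and 65.5 CPM in the cytoplasm and 50.1, 50.9 and 53.1 against 50.9, 50.4 and 57.6 CPM in whole-cell RNA.

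None of the 8 β-oxidation spiral genes was called in the 6 cytoplasmic or the 5 whole-cell libraries, although 7 and 8 of them were positive. ACADM, the medium-chain acyl-CoA dehydrogenase, had 82.8, 89.8 and 92.4 CPM in WT-res and 103, 109 and 107.3 CPM in ΔRS-res cytoplasm, without overlap (log2 fold change 0.27 (SE 0.0704, adjusted p = 0.165)). In whole-cell RNA it had 59.4, 69.7 and 90.7 against 63.98, 68.2 and 65.5 CPM, with the highest value in WT-res replicate 3. RABGGTB overlaps ACADM on the same strand, so some of these counts could have been divided between them by the quantification. ECHS1, the short-chain enoyl-CoA hydratase, had cytoplasmic values of 99.5, 134 and 104 against 146, 152 and 110.4 CPM and whole-cell values of 111, 110.5 and 88.2 against 127, 122 and 94.4 CPM, the third ΔRS-res library being the lowest of its group in both (0.27 (SE 0.151, adjusted p = 0.598) in the cytoplasm). ACADS, the short-chain dehydrogenase, ran the other way between replicates, with 14.04, 8.72 and 13.3 against 8.83, 8.74 and 13.9 CPM in the cytoplasm and 8.94, 8.501 and 12.5 against 9.28, 8.40 and 13.6 CPM in whole-cell RNA, and its cytoplasmic change was -0.20 (SE 0.235, adjusted p = 0.862).

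The trifunctional protein, which carries out the last steps on long chains, showed little difference in its α subunit. HADHA had 165, 172 and 169 CPM in WT-res and 169.6, 167 and 176 CPM in ΔRS-res cytoplasm, and 148, 148 and 142 against 158, 154 and 160.3 CPM in whole-cell RNA, and its cytoplasmic log2 fold change of 0.02 (SE 0.0626, adjusted p = 0.963) was the nearest to 0 among the spiral genes. HADHB, the thiolase subunit encoded head to head with it, had 52, 61.6 and 56.5 against 65.8, 69.2 and 61.4 CPM in the cytoplasm, where the lowest ΔRS-res value fell just under the highest WT-res value, and 57.3, 58.5 and 57.2 against 64.5, 60.7 and 60.7 CPM in whole-cell RNA (0.21 (SE 0.0862, adjusted p = 0.435) in the cytoplasm). The very long-chain dehydrogenase ACADVL, the short-chain hydroxyacyl dehydrogenase HADH and the thiolase ACAA2 had cytoplasmic changes of 0.14, 0.16 and 0.21, and whole-cell changes of 0.18, 0.28 and 0.27 without WT-res replicate 3.

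Of the enzymes for unsaturated fatty acids, DECR1, which reduces dienoyl-CoA intermediates, was the gene of the set with the greatest fold difference. It stood at 0.406, 0.463 and 0.38 CPM in WT-res and 0.103, 0.0756 and 0.0927 CPM in ΔRS-res cytoplasm. In whole-cell RNA it had 0.353, 0.453 and 0.0568 CPM against 0.103, 0.0761 and 0.0508 CPM, so that WT-res replicate 3 sat with ΔRS-res as it did for DDX19B. The log2 fold change was -2.20 (SE 0.253, adjusted p = 0.00643) in the cytoplasm, and DECR1 kept its call whichever cytoplasmic library was left out. In whole-cell RNA it was -2.39 (SE 0.349, adjusted p = 0.0187) in 5 libraries and -1.90 (SE 0.701, adjusted p = 0.324) in 6. These values rest on between 6 and 57 expected counts per library, and 53.1% of the gene's counts were assigned to a transcript annotated for nonsense-mediated decay (ENST00000517597) against 13.3% to the protein-coding ENST00000220764. ECI1 and ECI2, the enoyl-CoA isomerases that move double bonds, were expressed at far higher levels and had cytoplasmic changes of 0.066 and 0.034. For ECI2 the values were 93.2, 92.8 and 99.7 against 94.9, 97.6 and 100.1 CPM in the cytoplasm and 75.8, 78.8 and 88.5 against 79.2, 77.3 and 85.9 CPM in whole-cell RNA, which overlap.

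The electron transfer flavoprotein hands electrons of the acyl-CoA dehydrogenases to ubiquinone through ETFDH. ETFDH had 40.1, 42.7 and 43.2 CPM in WT-res and 52.6, 52.1 and 51.4 CPM in ΔRS-res cytoplasm, without overlap (0.31 (SE 0.0677, adjusted p = 0.0861)), and 37.4, 41.5 and 53.9 against 44.2, 45.5 and 44.99 CPM in whole-cell RNA. PPID and C4orf46 share exonic positions with it on the opposite strand. ETFA, a flavoprotein subunit, had the smallest cytoplasmic change of the 3, 0.16, with 167, 169.5 and 184 against 187, 198 and 197 CPM there and 142, 149.5 and 177 against 164, 160.5 and 176 CPM in whole-cell RNA. The other subunit, ETFB, changed by 0.23 in the cytoplasm and 0.31 in the 5 whole-cell libraries. PPARA, the nuclear receptor that drives fatty acid oxidation genes and binds PGC-1α, had 35.1, 23.1 and 37.05 CPM in WT-res and 27.9, 28.3 and 51.5 CPM in ΔRS-res cytoplasm, and 24.5, 23.2 and 41.95 against 31.6, 31.2 and 47.5 CPM in whole-cell RNA. As for IDH2, WT-res replicate 2 was the lowest and ΔRS-res replicate 3 the highest of the cytoplasmic libraries, and the groups overlapped. Its log2 fold change was 0.18 (SE 0.269, adjusted p = 0.898) in the cytoplasm and 0.63 (SE 0.188, adjusted p = 0.135) in the 5 whole-cell libraries. With all 6 whole-cell libraries it was 0.30 (SE 0.262, adjusted p = 0.716).

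**Figure D4:**
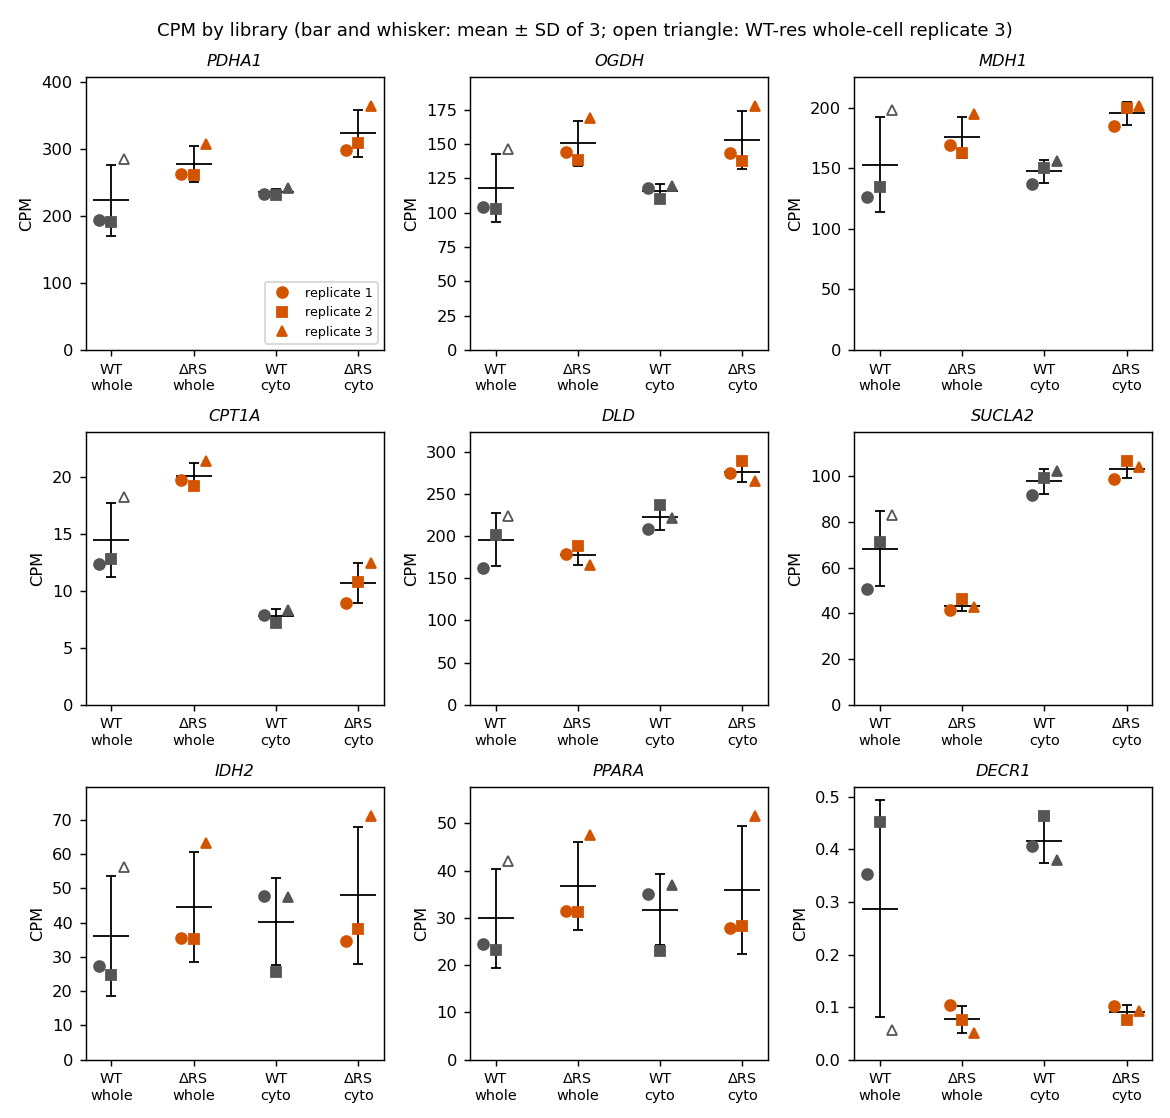
CPM (vertical axes, from 0) in each library for 9 of the genes, by line and fraction, with the mean and SD of the 3 libraries of a group. The open triangle is WT-res whole-cell replicate 3. PDHA1, OGDH, MDH1, CPT1A and DLD have ΔRS-res above WT-res in the cytoplasm without overlap, IDH2 and PPARA do not, SUCLA2 separates the lines in whole-cell RNA, and DECR1 is under 0.5 CPM in every library.

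The 4 cytoplasmic libraries kept in the study gave another count. With them 15 of the 38 genes were called higher and 5 lower, where 22.1% of all genes tested were called (10.7% higher and 11.4% lower). The higher genes were PDHA1, DLAT, DLD, IDH3A, IDH3B, IDH3G, OGDH, FH, MDH1, CPT2, SLC25A20, ACADM, ECHS1, HADHB and ETFDH, with changes between 0.23 (FH) and 0.57 (SLC25A20). Those lower were DECR1 (-2.13), ACADS (-0.63), IDH2 (-0.38), PPARA (-0.36) and SUCLG2 (-0.33). The direction of IDH2 and PPARA turned with the choice of libraries, as both were positive with all 6. The median was 0.14 against 0.0067 for all genes tested, and 28 genes were positive. In each of the 8 other removals of 1 cytoplasmic library per line, edgeR called none of the 38 genes (6 to 14 had an unadjusted p under 0.05), while it called between 21 and 172 of all genes tested. In these 8 removals the median lay between 0.12 and 0.22 and between 28 and 35 genes were positive. All of these calls, higher and lower, therefore hold for the removal made in the study and for none of the others. Of these genes only MDH1 and DECR1 were also called with all 6 cytoplasmic libraries. Within the 4 libraries, leaving out ΔRS-res replicate 1 left 12 genes called and leaving out ΔRS-res replicate 2 left 8.

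A list of 65 further genes of the cycle, pyruvate metabolism, fatty acid oxidation and their regulators was examined beside the set. In the cytoplasm with 6 libraries 46 were positive (median log2 fold change 0.11), with 3 called higher and 2 lower. Among all genes tested there 50.8% were positive (median 0.0043) and 1.53% were called (0.578% higher and 0.948% lower). SDHA, the flavoprotein of succinate dehydrogenase and so the cycle's link to the respiratory chain, rose by 2.19 (SE 0.0783, adjusted p = 1.93e-05). Its value is uncertain to the extent that reads were divided between SDHA and its near-identical pseudogenes. The mitochondrial citrate carrier SLC25A1 rose by 0.62 (SE 0.093, adjusted p = 0.0178) and the pyruvate dehydrogenase kinase PDK2 by 0.46 (SE 0.0812, adjusted p = 0.0348). ECHDC3, an enoyl-CoA hydratase-domain gene of low level, fell by 5.44 (SE 0.54, adjusted p = 0.00336) and PPARGC1A, whose counts include both the endogenous and the introduced copies, by 0.92 (SE 0.133, adjusted p = 0.016). With the 4 cytoplasmic libraries the study kept, 31 were positive (median -0.0155), with 17 called higher and 13 lower, not named here. Among all genes tested in those 4 libraries 50.8% were positive (median 0.0067) and 22.1% were called. In the 6 whole-cell libraries 49 were positive (median 0.11) and 0 were called. Of all genes tested in them 50.7% were positive (median 0.0042) and 0 were called. In the 5 whole-cell libraries 55 were positive (median 0.21), with 6 called higher and 2 lower. For all genes tested the shares were 49.3% positive (median -0.0051) and 2.06% called (0.886% higher and 1.18% lower). OGDHL, a homologue of OGDH, rose by 0.99 (SE 0.164, adjusted p = 0.0315), PDK3 by 0.46 (SE 0.0632, adjusted p = 0.0152) and the PPARα partner RXRA by 0.42 (SE 0.0792, adjusted p = 0.0489). SDHA, SLC25A1 and PDK2 rose as well. SDHA was a gene by which WT-res replicate 3 was set apart, so its call here is not independent of that removal. The acyl-CoA synthetase ACSL3 fell by 0.73 (SE 0.113, adjusted p = 0.024) and ECHDC3 by 3.93 (SE 0.346, adjusted p = 0.00314).

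In the cytoplasm the medians of the genes that lie near each of the 38 stayed under the median of the set, 0.19. A median over many genes varies less than the change of a single gene, so the comparison is no test. For some genes, HADHA and ECI1 among them, the gene itself was nearer to 0 than the median of its neighbours. The median cytoplasmic log2 fold change of the tested protein-coding genes that start within 5 Mb ranged from -0.084 (around SUCLG2) to 0.11 (around PPARA), and around PDHA1, MDH1, OGDH, CPT1A and DECR1 it was 0.044, -0.0083, 0.052, 0.097 and -0.011. In the 5 whole-cell libraries the medians ran from -0.38 (around ACADM) to 0.22 (around PDHA1). PDHA1 itself changed by 0.53 there.

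Between the fractions, most of the 38 mRNAs lay towards the cytoplasm, and CPT1A alone was called the other way. In WT-res 36 of 38 had a higher level in cytoplasmic than in whole-cell RNA after scaling, with 6 called higher and 1 lower, where 34.4% of all genes tested were called (12% higher and 22.4% lower). In ΔRS-res 35 of 38 were positive, with 18 called higher and 1 lower, where 41.1% of all genes were (17% higher and 24.1% lower). The medians, 0.21 in WT-res and 0.26 in ΔRS-res, lay close to those of all genes with at least 5 CPM, 0.18 and 0.17. Of these 11603 genes, 66.6% were positive in WT-res and 65.9% in ΔRS-res. Called higher were 2897 of them in WT-res and 4062 in ΔRS-res, and called lower 2365 and 2518. ACADVL had negative differences in both lines (-0.11 in WT-res and -0.054 in ΔRS-res) and PC in ΔRS-res (-0.015), none of them called. Because each library is scaled to its own total, these differences are relative to other mRNAs and are no measure of the amount exported. The replicate number marks the same cell pellet in the study's sample sheet. With it as a block the calls were 11 higher and 1 lower in WT-res and 28 higher and 1 lower in ΔRS-res. The WT-res pair numbered 3 did not match, with DDX19B at 0.199 CPM in its whole-cell and 14.5 CPM in its cytoplasmic library. With the block and without that whole-cell library only ACADM, CPT1A, PDHX and SUCLA2 were called in WT-res. In WT-res the number of calls changed with single libraries, with 19 called without whole-cell replicate 3, 4 without whole-cell replicate 1, and 2 each without whole-cell replicate 2 and without cytoplasmic replicate 3. CPT1A and PDHX were called there whichever library was left out. In ΔRS-res 12 were called without whole-cell replicate 1 and 12 without whole-cell replicate 2. The summed level of the nuclear RNAs NEAT1, MALAT1 and KCNQ1OT1 was 1587 to 3512 CPM in whole-cell and 1055 to 1835 CPM in cytoplasmic libraries, and mitochondrially encoded RNA took 1.92% to 2.65% of whole-cell and 0.092% to 0.328% of cytoplasmic counts.

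SUCLA2 had the largest positive difference between fractions among those called, 0.61 (SE 0.166, adjusted p = 0.0246) in WT-res and 1.33 (SE 0.0736, adjusted p = 5.99e-06) in ΔRS-res, a fold of 2.51 in the latter. ACADM followed in ΔRS-res with 0.77 (SE 0.0646, adjusted p = 5.1e-05), DLD with 0.72 (SE 0.0771, adjusted p = 0.000204) and PDHX with 0.56 (SE 0.0657, adjusted p = 0.000334). PDHX was the only one of these 3 called in WT-res as well (0.48 (SE 0.0957, adjusted p = 0.00704)). Without WT-res whole-cell replicate 3 all 3 were called in WT-res, ACADM at 0.52, DLD at 0.36 and PDHX at 0.50, and SUCLA2 stood at 0.75. CPT1A was lower in the cytoplasm in both lines, by 0.80 (SE 0.166, adjusted p = 0.00861) in WT-res and 0.82 (SE 0.132, adjusted p = 0.00173) in ΔRS-res, with every cytoplasmic library under every whole-cell library of the same line. Its difference in WT-res was -0.62 without WT-res whole-cell replicate 3, and it was still called. The test of the question itself, whether the difference between fractions differs between the lines, called none of the 38 genes with edgeR (0.00375% of all genes tested). An unadjusted p under 0.05 was found in this test for 1472 of all 26686 genes. The contrast was positive, towards the cytoplasm in ΔRS-res, in 1115 of them and negative in 357. Of the 11603 genes with at least 5 CPM, 762 positive and 116 negative ones had such a p. Among the 38 there were 3, SUCLA2 (0.71 (SE 0.2, adjusted p = 0.702)), DLD (0.44 (SE 0.152, adjusted p = 0.702)) and ACADM (0.40 (SE 0.176, adjusted p = 0.876)), all with a greater cytoplasmic excess in ΔRS-res. Without WT-res whole-cell replicate 3 these values were 0.54 for SUCLA2, 0.32 for DLD and 0.21 for ACADM, none was called, and ACADM no longer had an unadjusted p under 0.05. DESeq2 called none with all 12 libraries, and edgeR called SUCLA2 and DLD without WT-res whole-cell replicate 1. That fit kept replicate 3, where SUCLA2 (83.1 CPM) and DLD (224 CPM) had their highest WT-res whole-cell values. The share of all genes called in that fit is not reported here, so these calls are not compared with other genes.

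**Figure D5:**
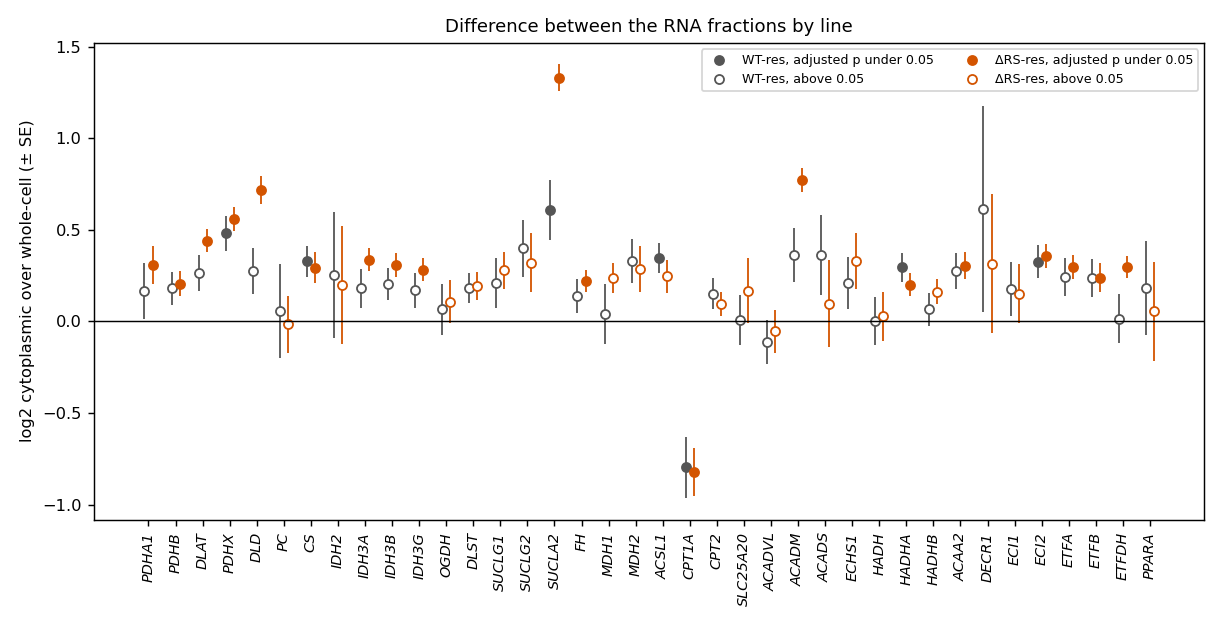
Log2 difference of cytoplasmic over whole-cell RNA with its standard error for each of the 38 genes, in WT-res (grey) and ΔRS-res (orange). Filled points passed an adjusted p of 0.05. SUCLA2 in ΔRS-res lies highest, at 1.33, and CPT1A is the lowest in both lines, at -0.80 and -0.82.

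Single transcripts gave no call at an adjusted p of 0.05. Of 464 transcripts of the 38 genes tested in the 6 cytoplasmic libraries, none passed with edgeR (0.0241% of all 124558 transcripts tested did) and 50 had an unadjusted p under 0.05. At the threshold used in the study, which asks for a change of over 0.5 on the log2 scale at an unadjusted p of 0.05, 18 were higher and 8 lower, or 5.6% where 4.06% of all transcripts were called. In the 5 whole-cell libraries that threshold gave 29 higher and 15 lower of 468 (9.4%, against 6.28%), and again none passed at an adjusted p of 0.05 (0.0132% of all transcripts did) while 62 had an unadjusted p under 0.05. How many of all transcripts had an unadjusted p under 0.05 is not reported here. The smallest adjusted p in the cytoplasm, 0.194, belonged to the PDHA1 transcript ENST00000422285, with a log2 fold change of 0.54. The counts of MDH1 were assigned evenly to a pair of protein-coding transcripts, ENST00000233114 and ENST00000539945, with 47.6% each. Both have a length of 1296 bases and the same cytoplasmic log2 fold change, 0.42, so the even split does not show separate expression of each. Retained-intron transcripts held 5.57% of the set's counts in WT-res and 4.89% in ΔRS-res whole-cell RNA, and 2.19% and 2.28% in the cytoplasm.

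Promoter windows of the set were searched because many of its genes lay on the same side. RefSeq windows of GRCh38.p14, 250 bases before to 50 after a start, were at hand for 35 of the 38 genes (49 windows), without DECR1, ETFDH and OGDH. Both strands were read. The oestrogen-related receptor element TNAAGGTCA was in no window of the set and in those of 1.17% of all 27305 genes. The core of the NRF1 element, GCGCANGCG, was in windows of 5 genes of the set, SUCLA2, IDH3A, ETFB, PPARA and IDH3G, and in those of 9.02% of all genes. These 5 stretches are printed in the direction of the gene with the core in capitals, to show where it sits beside genes whose levels are given here. In SUCLA2, IDH3A and IDH3G the core reads as its reverse complement, and in PPARA it occurs on both strands 1 base apart.
SUCLA2, chr13:48001292-48001320, minus strand: gtcgcctgtgCGCCTGCGCgcggcgccga
IDH3A, chr15:78149343-78149371, plus strand: gtggggtgggCGCTTGCGCactgccgctg
ETFB, chr19:51366408-51366436, minus strand: accgtgctgcGCGCAGGCGcagagagggg
PPARA, chr22:46150758-46150786, plus strand: gggctgggcgGCGCATGCGcggggcccgg
IDH3G, chrX:153794418-153794446, minus strand: tgcgaccgcgCGCGTGCGCagtaccgggt
The core began between 9 (IDH3A) and 61 (IDH3G) bases before the RefSeq start. In cytoplasmic RNA these genes had log2 fold changes of 0.076, 0.34, 0.23, 0.18 and 0.23, within the range of the set.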

How the data were processed

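RNA was measured in 12 libraries, 3 each of whole-cell and cytoplasmic RNA of WT-res and ΔRS-res cells. After trimming with Trim Galore and alignment by STAR (GRCh38), the authors estimated Ensembl transcripts with RSEM. They deposited its expected counts for each transcript without normalization. The roles of tools come from the study's methods, and their versions are not given in the sources used here. Totals lay between 90333190 and 144628005, and the precision of a gene is set by the spread between libraries rather than by depth.

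Expected counts were summed per gene and rounded, and genes with a mean count above 2 were tested with edgeR 4.0.16 in R 4.3.3 (TMM, quasi-likelihood test, Benjamini-Hochberg adjustment over all genes tested). A gene was called at an adjusted p under 0.05. SE, the standard error of the log2 fold change, was back-calculated as its absolute size divided by the square root of the quasi-likelihood F statistic. CPM values use TMM-scaled library sizes within a fraction, and TPM values use GENCODE 44 transcript lengths, which matched 99.72% of transcripts. The tests were tried on simulated data in which known genes were changed. Alternatives were DESeq2 1.42.0, its size factors, no filter, filterByExpr, the study's threshold, a replicate block and each library left out. The study tested with DESeq2.

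The 38 genes and the further lists were chosen with earlier results of these data known. Values in every library are given for the 16 of the called genes with the largest cytoplasmic change, and for the gene nearest to no change in each role. Genes of the further list are named where called. The overlaps with other genes that are named are not all that exist, and the rest are not reported here. In the promoter search, the NRF1 core replaced a longer form of the element, and a PPAR direct repeat that no gene of the set held was dropped, after their matches had been seen.

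Replicates are from consecutive passages. Over 14938 genes, whole-cell libraries of the lines with the same number deviated together (Pearson correlations 0.544, 0.548 and 0.683), and cytoplasmic ones did for numbers 2 and 3 but not for number 1 (-0.421, 0.619 and 0.467). The 2 fractions of a line and number share a cell pellet ID in the study's sample sheet (-0.166, 0.589 and 0.473 in WT-res, 0.519, 0.466 and 0.797 in ΔRS-res). No pair of libraries of a group was a copy (chi-square per gene of at least 21.8).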

Additional observations from a re-analysis of the deposited data

How the results depend on the processing

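Counts of called genes depended on the setting more than medians did. In the 6 whole-cell libraries the 0 calls became 2 with DESeq2, 2 at the study's threshold and 7 with a replicate block, and between 0 and 4 with a library left out. In the 5 whole-cell libraries the 4 calls became 13 with DESeq2, 14 with no filter and 18 with the replicate block, and between 0 and 12 with a further library left out. In the 6 cytoplasmic libraries the 2 calls became 9 with DESeq2, 1 at the study's threshold and 1 without any single library, and 3 with the replicate block, although not all of the numbered pairs deviated together there. In the 4 cytoplasmic libraries the 20 calls became 4 at the study's threshold. Leaving out 1 of the 4, or removing another library per line, gave between 0 and 24. No paired fit was made there because the lines share 1 number only. The interaction gave 1 call at the study's threshold, 0 with a replicate block and between 0 and 2 with a library left out. The 7 calls between fractions in WT-res became 15 with DESeq2, 15 with its size factors, 2 at the study's threshold, 12 with the replicate block, 4 with that block and without WT-res whole-cell replicate 3, and between 2 and 19 with a library left out. The 19 in ΔRS-res became 5 at the study's threshold, 29 with the replicate block and between 12 and 23 with a library left out. The cause of these shifts was not tested. Among all genes tested, DESeq2 called 269 higher and 795 lower in the 6 whole-cell libraries and 1191 and 1244 in the 5. It called 426 and 507 in the 6 cytoplasmic libraries. Shares of all genes with no filter, with the block or with a library left out are not reported here. Those counts of the set are therefore not compared with other genes.

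Directions of called genes turned in some of the 8 other removals of 1 cytoplasmic library per line, which were chosen after seeing the data, as was the block without a library. IDH2 and PPARA also turned with all 6 cytoplasmic libraries. In the removals the log2 fold changes turned positive for genes called lower in the libraries kept by the study. The values were, for IDH2 0.15, 0.20, 0.51, 0.53, 0.57 and 0.58. They were, for PPARA 0.14, 0.15, 0.40, 0.41, 0.43 and 0.46. They were, for SUCLG2 0.038, 0.044 and 0.13. They were, for ACADS 0.034 and 0.043.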
